A study of Populus ussuriensis with 8 samples.

Results

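The comparison described here is that of methyl jasmonate (MeJA) against no treatment 0.5 h after cutting, at the base of stem cuttings of the poplar Populus ussuriensis. It rests on 4 of the 8 RNA-seq libraries of the series, chosen by their labelled time: 2 from untreated cuttings and 2 from cuttings on MeJA. Stem segments of in vitro plants were placed on half-strength Murashige and Skoog medium with sucrose, either plain or with 1 µM MeJA, and the lowest 0.5 cm was taken for RNA. The other 4 libraries, from the same treatments at 1 h, are used below as separate material. The genotype is not given beyond the species, the growth and treatment texts of the labels disagree on the age of the source plants, and nothing says how many cuttings went into a library or whether replicates came from separate cultures. P-values therefore set the gap between groups only against the scatter of these libraries, and that scatter may be technical. In such bulk samples, fewer cells of a type and less RNA per cell cannot be told apart.

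MeJA is the volatile methyl ester of jasmonic acid, a lipid-derived plant hormone. In Arabidopsis, jasmonic acid is joined to isoleucine inside the cell, and the conjugate brings the receptor COI1 together with JAZ repressor proteins, which are then degraded, so that transcription factors such as MYC2 are released. Wounding sets off jasmonate synthesis within minutes, so both groups of cuttings, all freshly cut, start from a wounded state. The base of a cutting is where adventitious roots, roots that arise from stem tissue, later form. The files list poplar Potri identifiers and do not pair them with gene names, so jasmonate genes, cell type markers and other named groups could not be looked up. The labelled tissue could therefore not be checked against markers, and genes are given below by identifier, with no function.

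At the level of whole genes no difference between MeJA-treated and untreated cuttings passed the test 0.5 h after cutting. Of 23460 genes with at least 1 FPKM (fragments scaled to transcript length and to library size) in at least 2 of the 4 libraries, 0 reached an adjusted p of 0.05 in limma (0% of genes tested). The smallest adjusted p was 0.357. An unadjusted p under 0.05 was found for 1603 genes, or 6.83%. Of these, 669 genes (2.85%) were higher with MeJA and 934 (3.98%) were lower. Levels did not overlap between the groups for 3218 genes (13.7%) that were higher in both MeJA libraries and 5375 genes (22.9%) that were lower in both. Groups of 2 libraries often separate without any effect of treatment, so such counts, here and below, are not evidence of one. The excess of lower genes depended on the scaling. As deposited, 41.7% of the genes with an unadjusted p under 0.05 were higher with MeJA, against 53.0% with quantile-normalized values and 54.9% with median-centred libraries. Among genes with an unadjusted p under 0.05 the balance also rested on 1 library, since 56.4% were higher once untreated replicate 2 was left out. The median over all tested genes kept its sign but depended on the scaling too. It was -0.006 with quantile-normalized values and -0.002 with median-centred libraries, which even out library medians by design. As deposited it was -0.030 with all 4 libraries and -0.034 without untreated replicate 2, on the log2(FPKM + 1) scale. All log2 differences of levels are given on that scale.

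**Figure D1:**
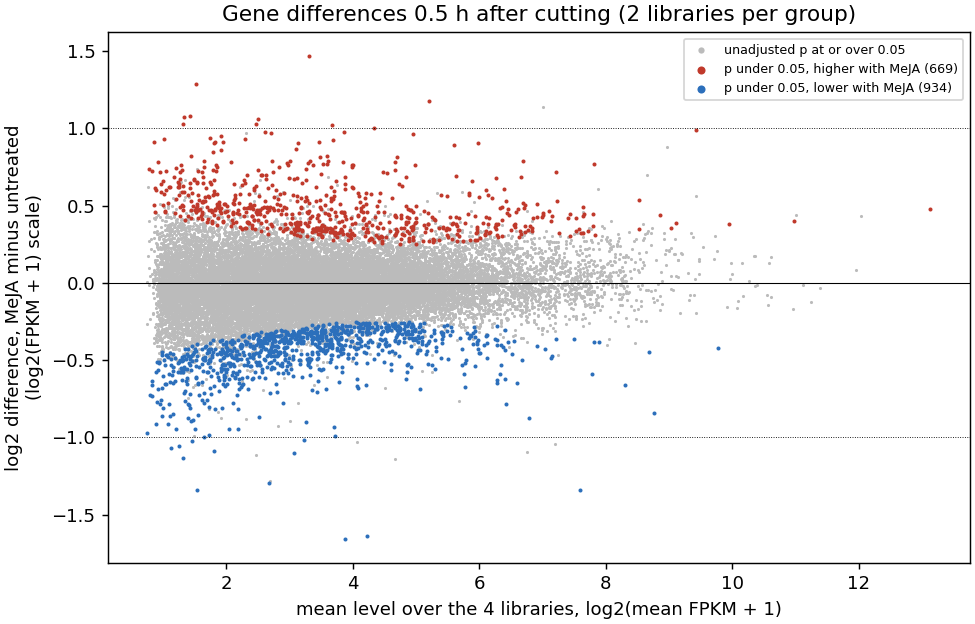
Each point is 1 of 23460 genes, with its mean level over the 4 libraries of 0.5 h on the horizontal axis and its log2 difference, MeJA minus untreated, on the vertical axis; dotted lines mark a difference of 1. Colour marks an unadjusted p under 0.05 (669 higher, 934 lower), and no gene passed after adjustment.

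The spread between replicates was about as large as the distance between treatments. Between the untreated replicates, 104 genes differed by at least 1 on the log2 scale, and between the MeJA replicates 150 did. The pairs with 1 library of each group gave 103 to 201 such genes, so that their range enclosed both replicate pairs. Spearman correlations across genes were 0.984 for the untreated replicates, 0.985 for the MeJA replicates, and 0.982 to 0.985 between the groups. On the first principal component, which held 37.8% of the variance, the untreated libraries stood at -9.87 and -17.7 and the MeJA libraries at 2.77 and 24.8, so the groups did not overlap there. The other components held 33.3% and 28.9%. On the one with 33.3% the untreated libraries took both extremes, at 24.4 and -15.6. MeJA replicate 2 was the library that most often stood low on its own, with 26 genes at least 1 log2 unit below all 3 other libraries, where the others had 1 or 2 such genes.

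**Figure D2:**
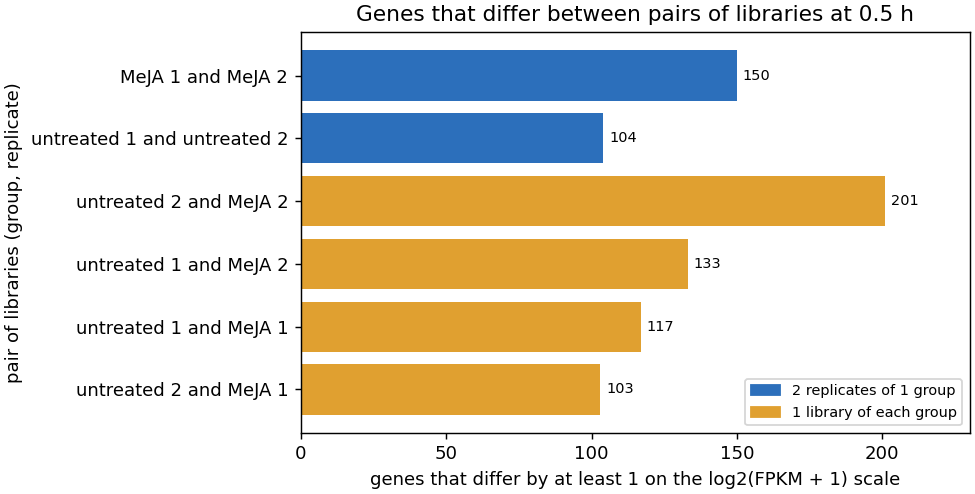
Bars give, for each pair of the 4 libraries of 0.5 h, the number of tested genes whose log2(FPKM + 1) differed by at least 1. Replicate pairs (104 and 150 genes) lie within the range of pairs between treatments (103 to 201 genes).

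For most genes the interval for the gap between these libraries was narrow on the log2(FPKM + 1) scale. Since the replicates may be technical, it does not bound the effect of MeJA on cuttings in general. The added 1 also compresses differences at low levels, and 2902 tested genes had a mean under 2 FPKM. The 95% confidence interval for MeJA minus untreated lay wholly within -1 and 1 log2 units in 97.2% of tested genes. The median half-width of that interval was 0.34, a factor of 1.26 on the FPKM + 1 scale. It was widest for genes with a mean under 2 FPKM, at 0.46, and narrowest for genes of 10 to 50 FPKM, at 0.28. Genes of 50 FPKM and over leaned upward with MeJA, with 4.82% of 2198 genes higher and 2.82% lower at an unadjusted p under 0.05. In each lower class of level the balance was the other way, with 2.36% to 2.78% higher and 3.72% to 4.61% lower. These are shares of deposited values, for which the scaling above shifts the balance. The 100 most abundant genes held 14.96% and 16.1% of the summed FPKM in the untreated libraries and 17.1% and 16.9% in the MeJA libraries. In MeJA replicate 1 that share included Potri.013G139900, Potri.013G140100 and Potri.011G074100 at 1936, 1512 and 1147 FPKM. In MeJA replicate 2 they had 104, 79.6 and 66.8 FPKM, below both untreated libraries. The most abundant gene, Potri.009G030800, on chromosome 9, had 6962 and 8017 FPKM in the untreated libraries and 9418 and 11556 FPKM in the MeJA libraries. It was higher in both MeJA libraries, by 0.48 ± 0.19 log2 units (SE), with a limma adjusted p of 0.708.

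Large differences were few. A log2 difference of at least 1 in either direction was found for 29 genes in all, 11 of them higher and 18 lower with MeJA. Groups did not overlap for 10 of the 11 and 16 of the 18, against 13.7% and 22.9% of all tested genes, but a difference of that size in 2 libraries per group largely fixes this, so nothing is read from it. The files list 1 isoform for 8 of the 11 higher and 15 of the 18 lower genes, and for 11673 of all 23460 tested genes. Genes with 1 isoform also had wider intervals, with a median half-width of 0.37 against 0.30 for genes with 4 or more. Mean levels of the higher genes ranged from 1.5 to 127 FPKM with a median of 4.68, and those of the lower genes from 1.18 to 193 FPKM with a median of 6.44. The 127 FPKM belonged to Potri.011G075000, whose groups overlapped and whose difference rested on 1 library. It had 403 and 17.3 FPKM under MeJA and 21.4 and 66.8 FPKM in untreated cuttings. The next highest mean of the higher genes was 36.1 FPKM. No gene was near silence in only 1 group: 0 genes were under 0.1 FPKM in both libraries of 1 group and at 1 FPKM or more in both of the other, in either direction.

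Potri.014G022200, on chromosome 14, had the smallest p of all genes. It stood at 3.63 and 4.86 FPKM in the untreated libraries and at 14.95 and 11.99 FPKM in the MeJA libraries of 0.5 h. The MeJA libraries were both well above the untreated ones, 1.47 ± 0.17 log2 units apart (SE), and the limma adjusted p was 0.357. At 1 h the untreated libraries had 10.3 and 14.5 FPKM and the MeJA libraries 8.9 and 11.5 FPKM. The groups overlapped then, and the untreated libraries stood near the level of the MeJA libraries of 0.5 h.

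Potri.013G014200, on chromosome 13, had 18.9 and 20.9 FPKM in untreated cuttings and 44.0 and 35.8 FPKM under MeJA. Its groups did not overlap at 0.5 h and lay 0.96 ± 0.13 log2 units apart (SE), with a limma adjusted p of 0.357. At 1 h the untreated libraries had 21.9 and 27.8 FPKM and the MeJA libraries 28.4 and 24.7 FPKM, and the groups overlapped.

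The genes of smallest p that were lower with MeJA stood at lower levels still in every library of 1 h. Potri.001G074700, on chromosome 1, had 16.11 and 16.20 FPKM in untreated cuttings and 9.19 and 6.91 FPKM under MeJA, a difference of -0.93 ± 0.15 log2 units (SE) with a limma adjusted p of 0.357. The untreated replicates nearly coincided and both MeJA libraries were below them. At 1 h the values were 3.67 and 3.86 FPKM in untreated cuttings and 4.82 and 5.17 FPKM under MeJA, so the MeJA libraries were then the higher ones.

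Potri.003G038500, on chromosome 3, the most abundant of these 4 genes, had 149 and 134 FPKM in untreated cuttings and 71.5 and 81.9 FPKM under MeJA, a difference of -0.87 ± 0.14 log2 units (SE) with a limma adjusted p of 0.357. The groups were far apart at 0.5 h and lay together at 1 h, at 25.9 and 24.0 FPKM without MeJA and 25.6 and 23.8 FPKM with it. None of these 4 genes passed the test. They were picked as the 2 of smallest p in each direction among genes whose groups did not overlap. Their separation at 0.5 h is thus part of the choice.

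**Figure D3:**
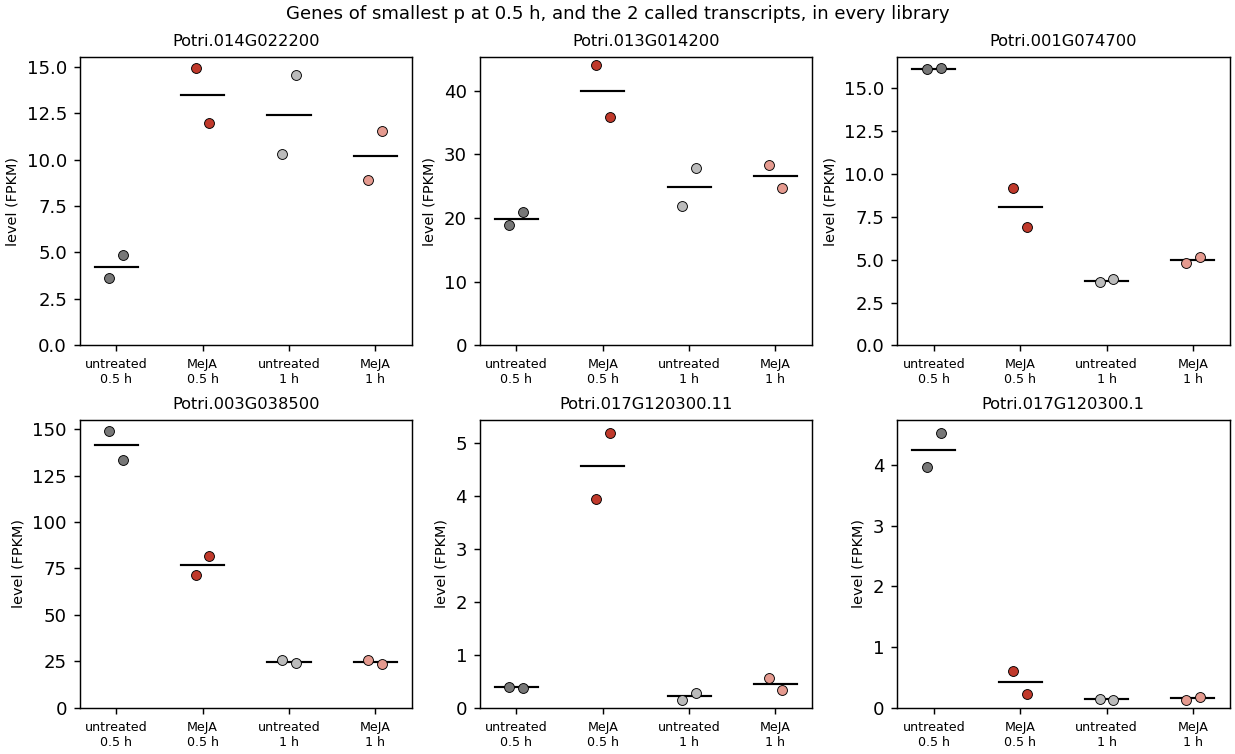
Points are single libraries (2 per group), horizontal bars the group means, and vertical axes levels in FPKM from 0; panels show the 2 genes of smallest p in each direction at 0.5 h and the 2 transcripts called in the transcript test. The treatments are apart at 0.5 h in each panel, which for the genes was a condition of the choice. At 1 h the groups overlap for Potri.014G022200, Potri.013G014200, Potri.003G038500 and Potri.017G120300.1.

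Whether the MeJA difference at 0.5 h was another than that at 1 h was tested in a fit of all 8 libraries. In limma 0 of 23460 genes (0%) had an adjusted p under 0.05, while 2217 (9.45%) did before adjustment. For Potri.014G022200 the difference at 0.5 h exceeded that at 1 h by 1.72 ± 0.27 log2 units (SE; limma adjusted p = 0.204). For Potri.001G074700 the difference at 0.5 h minus that at 1 h was -1.26 ± 0.19 (limma adjusted p = 0.204). The 1 h libraries share no sample with those of 0.5 h, so they show what became of the sets taken at an unadjusted p under 0.05. Of the 669 genes higher with MeJA at 0.5 h, 255 (38.1%) were higher with MeJA at 1 h. Of the 934 lower genes, 682 (73.0%) were higher with MeJA at 1 h. Among all tested genes 53.9% were higher with MeJA at 1 h. The median log2 difference of the first set went from 0.45 at 0.5 h to -0.07 at 1 h, and that of the second from -0.42 to 0.12. Both sets thus leaned the opposite way at the later time, without a test, since genes of 1 library are not independent.

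The test of single transcripts, which sees a switch between isoforms that leaves the gene total in place, gave 2 calls of 45596 transcripts (0.00439%). Before adjustment 2898 transcripts (6.36%) had a p under 0.05, of which 1141 (2.5%) were higher and 1757 (3.85%) lower with MeJA. This balance, too, turned round with quantile-normalized values (1395 higher, 1314 lower) and without untreated replicate 2 (1998 higher, 1622 lower). Groups did not overlap for 6238 transcripts (13.7%) that were higher and 10213 (22.4%) that were lower. Both called transcripts were isoforms of Potri.017G120300, on chromosome 17, a gene with 12 listed isoforms. Isoform 11 rose from 0.394 and 0.378 FPKM in untreated cuttings to 3.94 and 5.18 FPKM under MeJA, by 2.00 ± 0.16 log2 units (SE; limma adjusted p = 0.0300). Isoform 1 went the other way, from 3.97 and 4.53 FPKM in untreated cuttings to 0.602 and 0.237 FPKM under MeJA, a difference of -1.90 ± 0.17 log2 units (SE) with a limma adjusted p of 0.0392. Each isoform was thus near the other's level in the other treatment.

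The sum of isoforms 1 and 11 was 4.37 and 4.91 FPKM in untreated cuttings and 4.54 and 5.42 FPKM under MeJA, overlapping between the groups, and was 11.4% to 16.6% of the gene. The gene as a whole had 38.3 and 34.0 FPKM in untreated cuttings and 29.8 and 32.6 FPKM under MeJA, a difference of -0.20 ± 0.12 log2 units (SE) with a limma adjusted p of 0.801. The most abundant isoform, number 4, had 9.16 and 7.34 FPKM in untreated cuttings and 5.80 and 7.60 FPKM under MeJA, and its groups overlapped. By 1 h both called isoforms were low in all 4 libraries, isoform 11 at 0.151 to 0.561 FPKM and isoform 1 at 0.131 to 0.183 FPKM. Isoform 11 was still higher in both MeJA libraries then, at 0.561 and 0.343 FPKM against 0.151 and 0.290 FPKM untreated (limma adjusted p = 0.955). The call of isoform 1 was lost with the replicate number as a block (limma adjusted p = 0.0735) and with a pseudocount of 0.1 (limma adjusted p = 0.195). Neither isoform was tested at a minimum of 5 FPKM. Both calls were lost without untreated replicate 1 (limma adjusted p = 0.174 and 0.207 for isoforms 11 and 1) or untreated replicate 2 (0.106 and 0.258). How the quantifier divided reads between these isoforms cannot be seen in the files, and its part in the result was not tested. Of 10424 genes with at least 2 tested transcripts, 7 (0.0672%) had 1 transcript higher and another lower, each at an unadjusted p under 0.05. Only 2.5% of transcripts were higher and 3.85% lower at that threshold, so few such genes could arise and nothing is read from the count.

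The share of a gene's total held by each isoform was then tested at 0.5 h alone. Among 27918 isoforms of 8697 genes, 0 (0%) passed an adjusted p of 0.05 in limma, with a smallest adjusted p of 0.935. An unadjusted p under 0.05 was found for 1483 isoforms (5.31%), of which 765 (2.74%) were higher and 718 (2.57%) lower. Groups did not overlap for 4669 isoforms (16.7%) with a higher share under MeJA and 4608 (16.5%) with a lower one. These isoforms had a mean share of 10% to 90% in genes with at least 5 FPKM in each of the 4 libraries. The isoforms of Potri.017G120300 called above lie under that range, with mean shares of 7.81% for isoform 11 and 6.61% for isoform 1. With the range widened to 5% to 95%, isoform 11 alone was called (limma adjusted p = 0.0308). In 99.2% of the isoforms tested, the 95% interval for the change in log2 odds stayed within -1 and 1.

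The isoform shares named here are the 2 of smallest p in each direction among those whose groups did not overlap. Their close replicates and separate groups at 0.5 h are thus part of the choice, and nothing is read from them. Isoform 2 of Potri.004G204700, on chromosome 4, held 16.3% and 16.5% of the gene without MeJA and 28.2% and 25.7% with it, a log2 odds difference of 0.76 ± 0.11 (SE; limma adjusted p = 0.935). At 1 h it held 13.3% to 16.995% in the 4 libraries of both treatments. Isoform 2 of Potri.010G200000, on chromosome 10, held 18.0% and 18.4% without MeJA and 25.5% and 27.2% with it (log2 odds difference 0.63 ± 0.11 SE; limma adjusted p = 0.935). That order was also seen at 1 h, at 21.5% and 18.9% without MeJA and 29.2% and 23.7% with it, again with no overlap.

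In the other direction, isoform 2 of Potri.013G113500, on chromosome 13, one of the 2 isoforms listed for that gene, held 41.2% and 39.8% without MeJA and 27.0% and 29.5% with it (log2 odds difference -0.69 ± 0.11 SE; limma adjusted p = 0.935). Isoform 1 of Potri.016G085000, on chromosome 16, held 18.8% and 19.2% without MeJA and 8.89% and 9.81% with it (log2 odds difference -0.77 ± 0.12 SE; limma adjusted p = 0.935). Levels behind these shares were low. At 0.5 h isoform 1 of Potri.016G085000 had 1.21 and 1.43 FPKM in untreated cuttings and 0.633 and 0.552 FPKM under MeJA. At 1 h its share was 15.7% and 21.1% without MeJA and 14.4% and 13.4% with it, again with no overlap. For isoform 2 of Potri.013G113500 the groups overlapped at 1 h, at 33.7% and 35.8% without MeJA and 31.7% and 34.2% with it.

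**Figure D4:**
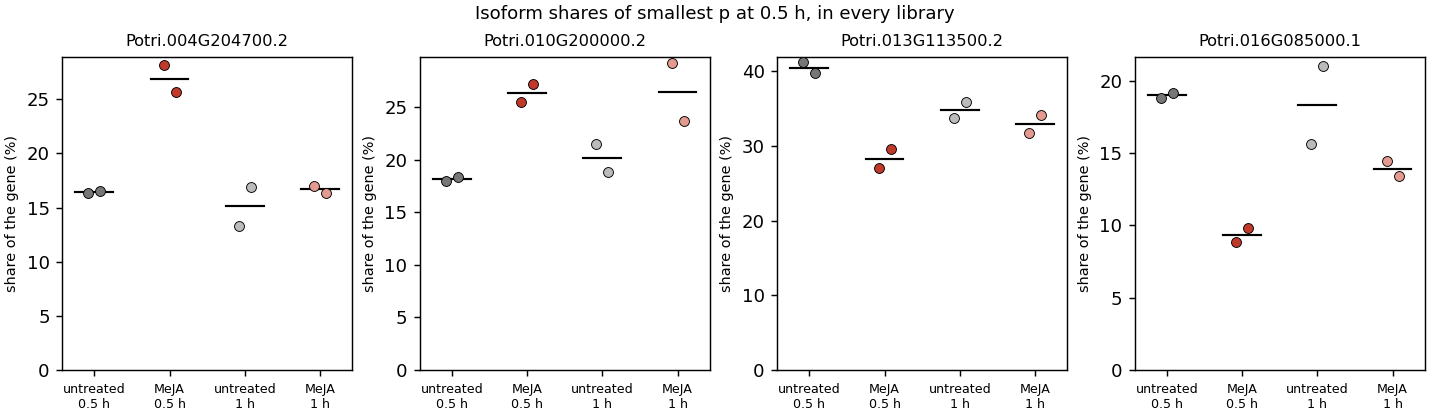
Points are single libraries (2 per group), bars the group means, and the vertical axis the percent of a gene's FPKM held by 1 isoform, from 0; the panels are the 2 isoforms of smallest p in each direction at 0.5 h. The panels were chosen among isoforms whose groups did not overlap at 0.5 h, so the separation there is part of the choice. No isoform passed the adjusted test.

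Genes with small p tended to lie beside each other in identifier order, which follows the chromosomes. Among the 669 higher genes, the next tested gene was also higher at an unadjusted p under 0.05 for 6.73%, against 2.85% of all tested genes. Among the 934 lower genes the figure was 9.21%, against 3.98% of all. The longest run of lower genes held 6 consecutive tested genes, Potri.013G137800 to Potri.013G138900, on chromosome 13. Their summed level was 26.0 and 41.1 FPKM in untreated cuttings and 12.1 and 8.96 FPKM under MeJA, and the untreated replicates differed widely. At 1 h the sums were 12.7 and 20.6 FPKM in untreated cuttings and 13.8 and 32.9 FPKM under MeJA, so that the treatments overlapped. The log2 differences of the 6 genes lay between -1.66 and -0.58, and none passed the adjusted test. The longest run of higher genes held 4, Potri.013G151000 to Potri.013G151500, on the same chromosome. Their summed level was 265 and 295 FPKM in untreated cuttings and 469 and 401 FPKM under MeJA, clearly apart, and 261 to 300 FPKM in all 4 libraries of 1 h, whatever the treatment. Neighbouring genes can be near-identical copies that share reads, which was not resolved here. These runs were chosen after their values were seen.

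A stretch at the start of chromosome 13 stood lower with MeJA across most of its genes. Along each chromosome, tested genes were taken in windows of 200 consecutive identifiers, and 183 windows held at least 50 tested genes. The median log2 difference of MeJA against untreated at 0.5 h was -0.03 over windows, with an SD of 0.02. The first window of chromosome 13 (134 genes) had a median of -0.13 and the second (120 genes) one of -0.14, whereas the others ranged from -0.09 to 0.03. Of the 254 genes in both windows, Potri.013G000200 to Potri.013G039900, 33 (12.99%) were lower with MeJA at an unadjusted p under 0.05 and 2 (0.787%) were higher, against 3.88% and 2.87% of all other tested genes.

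The position was also marked in the libraries of 1 h, and there too by an untreated library. Each library was compared with the mean of the 4 libraries of its time, gene by gene, after taking out the library's own median. Over the 254 genes, untreated 0.5 h replicate 2 stood above that mean by a median of 0.10 log2 units and untreated 1 h replicate 1 likewise by 0.10. In both libraries 73.2% of these genes lay above the mean, against 49.7% of all other genes. Untreated 0.5 h replicate 1 was at 0.01 and untreated 1 h replicate 2 at -0.03, so replicates of 1 group differed there. The 2 MeJA libraries of 0.5 h stood at -0.05 and -0.06, and those of 1 h at -0.03 and -0.03. In the first window untreated 0.5 h replicate 2 was the highest of its 4 libraries for 56.0% of the genes, and untreated 1 h replicate 1 for 53.7%, against at most 42.2% and 39.3% in any window outside this stretch. In steps of 50 identifiers, both libraries were above the mean in each of the first 7 steps, up to Potri.013G034800, and below it in the eighth.

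Without untreated 0.5 h replicate 2 the median over the 254 genes at 0.5 h was -0.11, against -0.03 for all other genes, and without untreated 0.5 h replicate 1 it was -0.20. The stretch was thus lower than the median of the other genes without either untreated library. Without replicate 2, however, single windows elsewhere came close to it. Window 11 of chromosome 3 had a median of -0.098 and window 7 of chromosome 4 one of -0.095. At 1 h the median over these genes was -0.04, against 0.02 for all others. Potri.013G014200, described above as higher with MeJA, lies within this stretch and goes against its direction. The windows and the stretch were chosen after the data had been seen, and their origin was not tested.

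**Figure D5:**
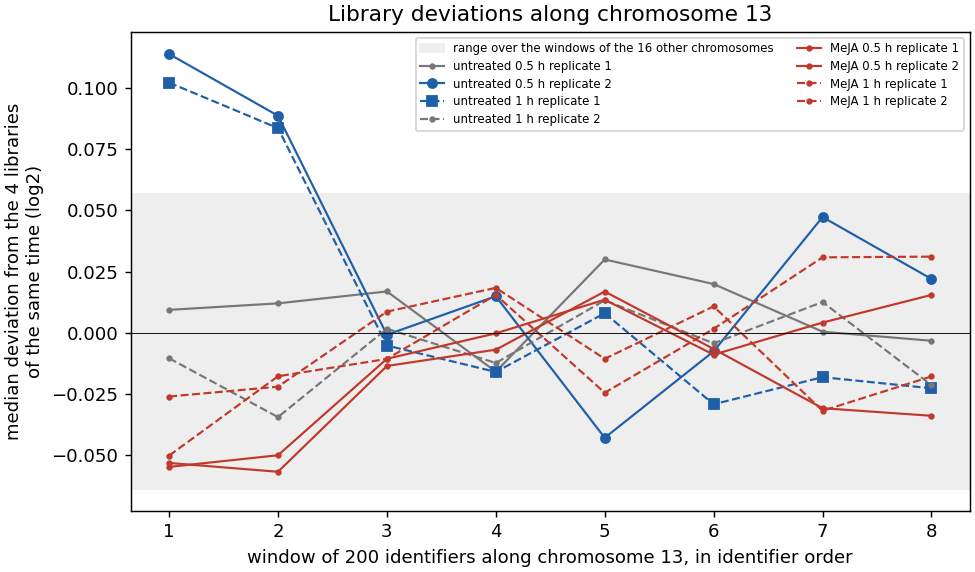
Lines give, for each of the 8 libraries, the median deviation (log2) of the genes in a window from the mean of the 4 libraries of the same time, over 8 windows of 200 identifiers along chromosome 13; the grey band is the range over windows of the 16 other chromosomes. Untreated 0.5 h replicate 2 and untreated 1 h replicate 1 stand above the band in the first 2 windows, at 0.114 and 0.102 in the first, and all libraries lie within it afterwards.

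The share of genes lower with MeJA at an unadjusted p under 0.05 ran from 2.82% on chromosome 12 to 6.48% on chromosome 13, where it was 4.32% after the first 2 windows were set aside. The next highest was 5.15% on chromosome 11, followed by 4.45% on chromosome 1. The share of higher genes ran from 2.22% on chromosome 3 to 3.76% on chromosome 2. The identifiers listed end within chromosome 17. Later ones were not analysed here, so no count given here covers them. Genes with 1 listed isoform had an unadjusted p under 0.05 more often, at 4.02% higher and 4.69% lower of 11673, than genes with 4 or more isoforms, at 1.203% and 3.56% of 3741. The classes of level, isoform number and chromosome were chosen with earlier results known, and differences between them were not tested.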

How the data were processed

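For each library the authors deposited 1 value per transcript. The unit is not given in the file headers or the labels. The deposited values were taken as FPKM because they are fractional, range too widely for logs and total 549538 to 577002 per library over the 65535 transcripts (36385 genes) listed. The submitters' processing notes list HISAT2 2.1.0 and Bowtie2 2.2.3 with no roles. Quantifier, genome build, annotation and strand setting: not given in the sources used here. Absolute depth is unknown, so no counting intervals are given. The most frequent ratio among single-isoform genes under 1 FPKM put the other libraries of 0.5 h at 0.931 to 0.966 times the depth of untreated 0.5 h replicate 1, a rough estimate, since 12.2% to 12.5% of ratios lay within 0.01 log2 units of it. Whole reads were not recovered and no count test was run.

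Transcripts were summed to genes. Genes or transcripts with at least 1 FPKM in 2 of the 4 libraries were tested as log2(FPKM + 1) in limma 3.58.1 (R 4.3.3) with variance trend and robust moderation, two-sided, with Benjamini-Hochberg adjustment over all features tested and a threshold of 0.05. Shares were tested as log2 odds with a pseudocount of 0.5. The comparison of times used all 8 libraries. The procedure was run on simulated data with independent normal noise drawn from the fitted spread. Such data lack the shifts shared by neighbouring genes that are described above, so they do not show how the tests behave under those. Genes named are the 2 of smallest p per direction whose groups do not overlap and whose mean reaches 1 FPKM. Shares named are the 2 of smallest p per direction, from different genes, whose groups do not overlap. The called transcripts are named too. Genes of runs, the most abundant gene and other abundant genes were named after their values were seen. Members and lists were chosen with earlier results of these data known. Planned lists by gene description could not be run without descriptions. Replicate numbers recur between groups but did not pair libraries (correlation of same-numbered deviations across genes -0.04). Alternatives were other scalings, filters, pseudocounts and share ranges, a plain prior, all 8 libraries, a replicate block and leaving out each library.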

Additional observations from a re-analysis of the deposited data

How the results depend on the processing

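Genes called for MeJA at 0.5 h stayed at 0 under the scalings, filters, pseudocount, plain prior, 8-library fit and replicate block tried, and without the 254 genes of chromosome 13 (an alternative chosen after seeing the data). Leaving out each library gave 0 to 1 genes, the 1 without MeJA replicate 1 (Potri.013G154700). Isoform shares gave 0 under the other settings, 1 with shares of 5% to 95%, and 0 to 2 without each library, the 2 without MeJA replicate 1 being isoforms of Potri.010G072200. The 2 transcripts called were 2 with all 8 libraries or quantile normalization, 1 with a pseudocount of 0.1 and 1 with the replicate block (isoform 11 in both), and 0 at 5 FPKM or more, where neither transcript is tested; leaving out each library gave 0 to 20, with 20 without MeJA replicate 1, where the spread of the lone MeJA library is taken from the untreated pair, 4 without MeJA replicate 2, and 0 without either untreated library. The comparison of times gave 0 genes with the replicate block, quantile normalization or a pseudocount of 0.1 and 0 to 2 without each library (2 without MeJA 1 h replicate 1, 1 without replicate 1 of either group of 0.5 h), and 0 of 45596 transcripts (3895 at an unadjusted p under 0.05), a test added after seeing the data. The replicate block changed no other call: it gave 0 genes, 0 shares and 0 genes between times. Genes with an unadjusted p under 0.05 numbered 1069 without MeJA replicate 2 and 1953 without untreated replicate 2; in the latter 56.4% were higher with MeJA, against 41.7% with all 4 libraries. The named genes and shares kept direction and side of the threshold, which for them is that of features not called, in 51 of 51 and 36 of 36 tries. No count test (edgeR, DESeq2) could be run on values that are not counts. The median over the 254 genes of chromosome 13 ranged from -0.20 to -0.11 when each library of 0.5 h was left out, against -0.14 with all. A pseudocount of 1 compresses differences at low levels: with 0.1 the log2 difference of isoform 11 of Potri.017G120300 was 3.25 (limma adjusted p = 0.0258) and that of isoform 1 was -3.16, no longer called (limma adjusted p = 0.195).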
